A study of Rattus norvegicus with 12 samples.

Results

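Fabp1, Fabp2, Fabp4, Fabp5 and Fabp7, which encode cytoplasmic fatty acid-binding proteins, and Dbi, which encodes the acyl-CoA-binding protein, were followed across the cell types, strains, platforms and lobular zones of the healthy rat liver. These 6 genes, of the 32883 in the reference, were chosen by values measured in these data, a higher Fabp1 level in LEW than in DA rats and Fabp7 transcripts in hepatocyte cells, with the cells that carry Fabp4 and Fabp5 as the question. The strain difference of Fabp1 and the cell type differences of Fabp1 and Fabp7 are therefore given as descriptions, without a test. All 6 genes were found and are accounted for here.

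The study compared untreated, healthy male rats of the inbred strains Dark Agouti (DA) and Lewis (LEW), which differ in their tolerance of liver transplants. Single cells of the total liver homogenate (TLH), released by collagenase digestion, were profiled from 2 rats per strain, single nuclei of snap-frozen liver from 2 rats per strain, and an immune-enriched cell preparation, washed and spun so as to deplete hepatocytes and red cells, from 1 rat per strain. In addition, 2 Visium sections (A and B) of healthy Wistar liver gave the position of the transcripts. No group carried a transgene or a treatment. The file names give 10 weeks of age for both DA and 13 weeks for both LEW rats of the TLH samples, while the series' design text gives 8 to 10 weeks and the study's methods 16 to 18 weeks, so strain and age cannot be told apart in the TLH libraries if the file names hold.

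Fatty acids are poorly soluble in water, and fatty acid-binding proteins carry them between membranes, lipid droplets, mitochondria and the nucleus. Fabp1 is the abundant liver form, Fabp2 the form of the intestinal enterocyte, Fabp4 the form of adipocytes, of many endothelial cells outside the sinusoids and of some macrophages, Fabp5 the epidermal form, which is also found in endothelial cells and macrophages, and Fabp7 the form of the developing brain. Dbi is not a member of the family by sequence: its protein binds fatty acids once they are joined to coenzyme A.

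The promoters of Fabp1 and Fabp7, the members that the hepatocyte results below turn on, are shown as the 250 bases before the start site (RefSeq, build GRCr8). Sequences of 4 members were matched, those of Fabp1, Fabp2, Fabp7 and Dbi. The Fabp1 window lies at chr4:104749090-104749339 and the Fabp7 window at chr20:37669356-37669605, both on the plus strand. Capitals mark the motifs searched for on both strands.
Fabp1: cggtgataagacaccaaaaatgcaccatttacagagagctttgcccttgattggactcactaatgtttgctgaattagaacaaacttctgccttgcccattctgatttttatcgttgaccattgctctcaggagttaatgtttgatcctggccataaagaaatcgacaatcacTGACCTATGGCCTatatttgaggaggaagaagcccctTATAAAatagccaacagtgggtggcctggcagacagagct
Fabp7: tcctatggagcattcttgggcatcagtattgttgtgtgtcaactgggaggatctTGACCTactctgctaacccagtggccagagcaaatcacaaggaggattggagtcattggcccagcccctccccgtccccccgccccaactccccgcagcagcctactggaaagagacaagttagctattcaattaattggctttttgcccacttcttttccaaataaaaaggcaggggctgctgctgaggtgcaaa

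The direct repeat AGGNCANAGGNCA, of the kind that nuclear receptors of fatty acids bind together with the retinoid X receptor, was read on the minus strand of the Fabp1 window between positions -77 and -65 from the start. It occurs in 0.368% of the 33469 promoter windows of the same length. The single site AGGTCA, present in 14.1% of windows, was found in Fabp1, where it overlaps the repeat, and in Fabp7 between positions -196 and -191. The Fabp1 window also held TATAAA between positions -40 and -35, as did 12.9% of windows. The windows of Fabp2 and Dbi held none of these letters. The base composition differed among the 4 windows: G and C made up 43.2% of the Fabp1 window, 40.4% of that of Fabp2, 51.6% of that of Fabp7 and 63.6% of that of Dbi, against a median of 51.2% over all windows. The Dbi window held 19 CG pairs and the Fabp1 window 3.

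Cells were assigned to classes by their marker transcripts, with no member gene among the markers. The 4 TLH libraries kept between 3844 and 7112 cells with a median of 1794 to 2546 UMIs per cell, the 4 nuclei libraries between 2205 and 5262 nuclei with a median of 1541.5 to 2059 UMIs, and the immune-enriched libraries 1163 (DA) and 2677 (LEW) cells with medians of 4090 and 5581 UMIs. Endothelial-like cells of the TLH libraries numbered between 242 and 961, Kupffer-like cells between 624 and 979 and hepatocyte-like cells between 2377 and 4096. The summed endothelial markers stood at 3851 to 4966 CPM (UMIs of a gene per 1000000 UMIs of the class) in TLH endothelial-like cells. They stood at 93.1 to 166.9 CPM in hepatocyte-like cells, and all 15 endothelial markers were detected in the endothelial-like class. The gate selects cells by these same markers, so this contrast follows from it and is no check of the classes. Hepatocyte transcripts were, however, found in every TLH class. The summed hepatocyte markers reached 54169 to 71295 CPM in TLH endothelial-like cells against 71263 to 85351 CPM in hepatocyte-like cells. In the DA immune-enriched library they stood at 2191 CPM in endothelial-like cells against 82514 CPM in hepatocyte-like cells, and in the LEW one at 23006 against 108307 CPM. For this reason the main class values of the members are given beside those of the immune-enriched libraries, and barcodes of low depth are given as a measure of RNA outside cells. These had under 1500 UMIs in the first DA and both LEW rats, for which the study states that limit, and under 2000 in the second DA rat. LEW barcodes between 1500 and 2000 UMIs are thus in neither set, the files held no barcode under 325 UMIs, and some of these barcodes may be small cells.

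Fabp1 transcripts were abundant in every TLH class, and the hepatocyte-like class did not stand above the endothelial-like one in CPM. In hepatocyte-like cells Fabp1 measured 5776 and 6105 CPM in the DA and 9613 and 11907 CPM in the LEW rats. In endothelial-like cells of the same rats it measured 6823 and 6518 CPM in DA and 10927 and 12273 CPM in LEW. Kupffer-like cells held 6011 and 5585 CPM in DA and 8956 and 10516 CPM in LEW, below the hepatocyte-like level in 3 of 4 rats. Barcodes below the UMI limit held 7361, 7330, 13010 and 14376 CPM, in the same order of rats, which was more than any of these classes. After scaling by library composition the endothelial-like level was the lower one, by a log2 difference of -0.12 for Fabp1 and -0.22 for Fabp7 (-0.27 and -0.37 without the filter on low counts), given without a test. The class difference appeared in the DA immune-enriched library. There Fabp1 stood at 4514 CPM in hepatocyte-like cells (exact Poisson 95% interval 4455 to 4573, counting error only, as for all such intervals here), at 94.1 CPM in endothelial-like cells (71.8 to 121), at 56.5 CPM in Kupffer-like cells and at 64.5 to 102 CPM in B, T, NK and erythroid cells. In the LEW immune-enriched library it stood at 8933 CPM in hepatocyte-like cells (8900 to 8965) and still at 2209 CPM in endothelial-like (2131 to 2289) and 1019 CPM in Kupffer-like cells.

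Fabp7 followed Fabp1 from class to class. In TLH hepatocyte-like cells Fabp7 measured 151 CPM in both DA rats and 343 and 418 CPM in the LEW rats, and in endothelial-like cells 155 and 166 CPM in DA and 338 and 416 CPM in LEW. The barcodes below the UMI limit gave 194, 178, 449 and 505 CPM. Per 100 Fabp1 UMIs there were 2.19 to 2.61 Fabp7 UMIs in the hepatocyte-like, endothelial-like and Kupffer-like cells of the DA rats and 2.64 and 2.42 in their barcodes below the limit, so the ratio differed little among these classes within a rat. In the LEW rats the ratio was 3.09 to 3.62 in these classes and 3.45 and 3.51 in the barcodes below the limit. The DA immune-enriched library placed Fabp7 in hepatocyte-like cells, at 152 CPM (141 to 163). Its Kupffer-like cells held 0 UMIs, which allows up to 3.26 CPM at 3 counts, its endothelial-like cells 2 UMIs (3.14 CPM), its T cells 2 UMIs (5.00 CPM), and its NK and B cells none. In the LEW library Fabp7 stood at 355 CPM in hepatocyte-like, 86.1 CPM in endothelial-like and 40.8 CPM in Kupffer-like cells. Since Fabp7 was chosen for its place in hepatocyte cells, these values describe it and test nothing.

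Dbi was found in all classes, immune cells included. In TLH hepatocyte-like cells it measured 1771 and 1899 CPM in the DA and 2424 and 2264 CPM in the LEW rats, and in endothelial-like cells 1950 and 1930 CPM in DA and 2534 and 2360 CPM in LEW. In hepatocyte-like nuclei it measured 721 and 655 CPM in DA and 1132 and 649 CPM in LEW. The hepatocyte-like ranges of the strains were apart in TLH cells and overlapped in nuclei. Per 100 Fabp1 UMIs, TLH endothelial-like cells held 28.6 and 29.6 Dbi UMIs in DA and 23.2 and 19.2 in LEW. Barcodes below the UMI limit held 30.1 and 30.9 in DA and 25.4 and 19.0 in LEW. The part of free hepatocyte RNA in the Dbi level of the other TLH classes was not tested. With the rat as a block, Dbi was lower in endothelial-like than in hepatocyte-like TLH cells after scaling by library composition, by a log2 difference of -0.19 ± 0.05 (SE, edgeR quasi-likelihood test, adjusted p = 0.00124), although its CPM before that scaling was higher in 4 of 4 rats. It was lower in endothelial-like nuclei by a difference of -0.62 ± 0.18 (adjusted p = 0.00367). Against hepatocyte-like cells, Dbi was also lower in Kupffer-like TLH cells (-0.30, adjusted p = 1.61e-06) and nuclei (-0.56, adjusted p = 0.0159). The nuclei call of the Kupffer-like class was lost without the second DA rat (-0.48, adjusted p = 0.148) and without the first LEW rat (-0.38, adjusted p = 0.0974). Calls were common in these comparisons, since in TLH cells 41.3% of the 8471 genes tested differed between endothelial-like and hepatocyte-like cells and 46.1% between Kupffer-like and hepatocyte-like cells; in nuclei these shares were 39.1% and 25.5% of 5904 genes. Mesenchymal-like and hepatocyte-like cells gave -0.06 for Dbi in TLH cells (adjusted p = 0.387) and 0.00 in nuclei (adjusted p = 0.993), in comparisons that called 23.9% and 27.4% of genes. Without the filter on low counts the TLH difference was -0.23 and passed the test (adjusted p = 6.15e-05).

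In the DA immune-enriched library, where few hepatocyte transcripts reached other classes, Dbi stood at 1409 CPM in hepatocyte-like cells, 371 CPM in Kupffer-like, 203 CPM in NK, 199 CPM in endothelial-like, 141 CPM in B, 102 CPM in T and 15.9 CPM in erythroid cells. For every 100 Fabp1 UMIs there were 31.2 Dbi UMIs in these hepatocyte-like cells, 212 in endothelial-like and 656 in Kupffer-like cells. Erythroid cells gave 20.6 and B cells 165. The LEW library gave 20.9 in hepatocyte-like, 29.1 in endothelial-like, 50.6 in Kupffer-like, 22.7 in B and 21.8 in erythroid cells, a narrower range.

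**Figure D1:**
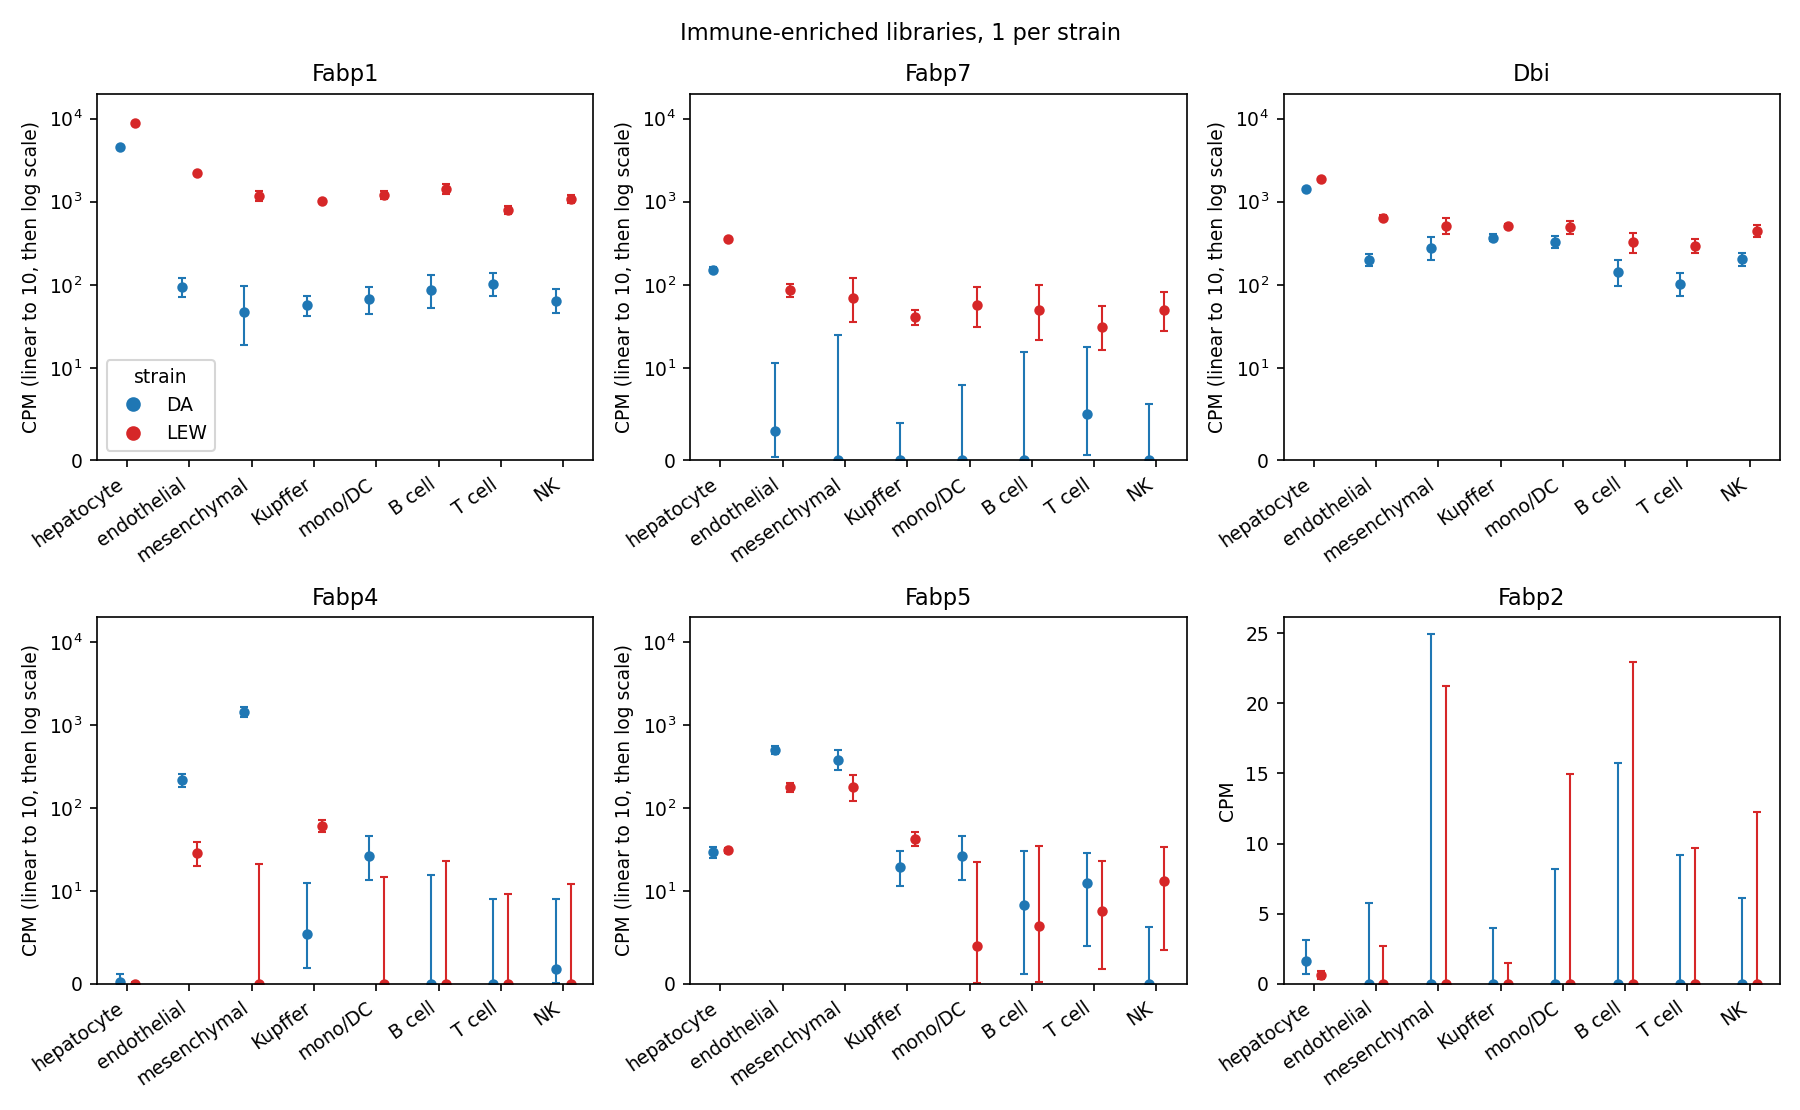
Level (CPM, symmetric log axis that is linear up to 10; linear for Fabp2) of the 6 genes in 8 cell classes of the immune-enriched libraries, 1 point per library (1 DA rat and 1 LEW rat), with bars for the exact Poisson 95% interval of the counts. Fabp1, Fabp7 and Dbi are highest in hepatocyte-like cells, Fabp5 is above its hepatocyte-like level in endothelial-like and mesenchymal-like cells, and Fabp4 is near 0 in hepatocyte-like cells.

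Fabp5 was higher in endothelial-like cells than in hepatocyte-like and Kupffer-like cells, and this was so chiefly in the DA rats. In TLH endothelial-like cells it measured 119.4 and 137.4 CPM in DA and 59.0 and 57.2 CPM in LEW (152, 329, 71 and 34 UMIs). In TLH hepatocyte-like cells it measured 29.4 and 30.3 CPM in DA and 39.0 and 37.4 CPM in LEW, and the barcodes below the UMI limit held 35 to 44.0 CPM. All 4 rats were thus higher in the endothelial-like class, with a wide gap in DA and a narrow one in LEW. The difference over the 4 rats was 1.27 ± 0.26 on the log2 scale (edgeR, adjusted p = 0.00256). Endothelial-like exceeded Kupffer-like TLH cells by 1.40 ± 0.29 (adjusted p = 0.00519), in a comparison that called 23.3% of genes.

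In nuclei, Fabp5 measured 124.9 and 63.7 CPM in endothelial-like nuclei of DA rats and 12.6 and 33.2 CPM in those of LEW rats (39, 22, 4 and 12 UMIs). Hepatocyte-like nuclei held 10.8 and 9.4 CPM in DA and 14.7 and 33.4 CPM in LEW. Both DA rats had higher values in endothelial-like than in hepatocyte-like nuclei, and in neither LEW rat did the 2 classes differ by more than a few CPM. The log2 difference over the 4 rats was 1.5 ± 0.48 (edgeR, adjusted p = 0.0225). Without the first DA rat it was 0.69 (adjusted p = 0.214) and without the second 1.17 (adjusted p = 0.186), so the nuclei result rests on both. The difference between endothelial-like and Kupffer-like nuclei, 2.07 ± 0.77, did not pass the test (adjusted p = 0.107), with 13.5% of genes called, but passed with DESeq2 (adjusted p = 0.0303), without the filter on low counts (2.12, adjusted p = 7.91e-05) and with no replicate block (2.14, adjusted p = 0.0464).

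In the immune-enriched libraries Fabp5 stood at 508 CPM in DA endothelial-like cells (454 to 567) and at 178 CPM in LEW ones (156 to 202), against 29.5 and 31.2 CPM in hepatocyte-like cells. Kupffer-like cells held 19.6 CPM in DA and 43.1 CPM in LEW, mesenchymal-like cells 384.9 CPM in DA, of whose 57 UMIs 36 lay in 2 cells, and 178.2 CPM in LEW, and B cells 8.54 and 6.23 CPM. NK cells held 0 UMIs in DA and 13.3 CPM in LEW. With 1 rat per strain these libraries allow no test. In both of them the endothelial-like value lay far above the hepatocyte-like value, in LEW as well.

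The share of cells with a Fabp5 UMI gave the same order at equal depth. With every cell thinned to 1500 UMIs, 16% and 17.0% of DA and 7.02% and 6.61% of LEW endothelial-like TLH cells had at least 1 UMI, against 4.15% and 4.21% of DA and 5.43% and 5.38% of LEW hepatocyte-like cells. Before thinning the endothelial-like shares ran from 12.0% to 25.4% and the hepatocyte-like shares from 5.22% to 9.08%. In the immune-enriched cells, thinned to 1000 UMIs, the shares were 28.5% of DA and 13.9% of LEW endothelial-like cells against 2.65% and 4.57% of hepatocyte-like cells (54.6%, 29.4%, 34.5% and 31.4% before thinning). The unthinned shares of hepatocyte-like cells lay far above the thinned ones.

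The strain dependence of the Fabp5 class difference was tested by an interaction term, in a fit added after the values had been seen. In TLH cells endothelial-like exceeded hepatocyte-like cells by 1.87 on the log2 scale in DA and by 0.26 in LEW, a difference of -1.60 ± 0.20 (edgeR, adjusted p = 1.99e-09). In nuclei the corresponding values were 2.83 in DA and -0.39 in LEW, a difference of -3.21 ± 0.47 (adjusted p = 3.06e-08). Over all genes this interaction was called for 1.38% in TLH cells and 0.328% in nuclei. The same term for the Kupffer-like class was -0.42 in TLH cells (adjusted p = 0.499, with 1.7% of genes called), for the mesenchymal-like class -0.50 (adjusted p = 0.999, with 0.058% called), and for Dbi in the endothelial-like class -0.11 in TLH cells (adjusted p = 0.763) and -0.27 in nuclei (adjusted p = 0.937). In nuclei Fabp5 gave -1.84 for the Kupffer-like class (adjusted p = 0.991), where 0.0211% of genes were called, and -1.18 for the mesenchymal-like class (adjusted p = 0.99996), where 0.0632% were called. None of these 6 passed the test.

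**Figure D2:**
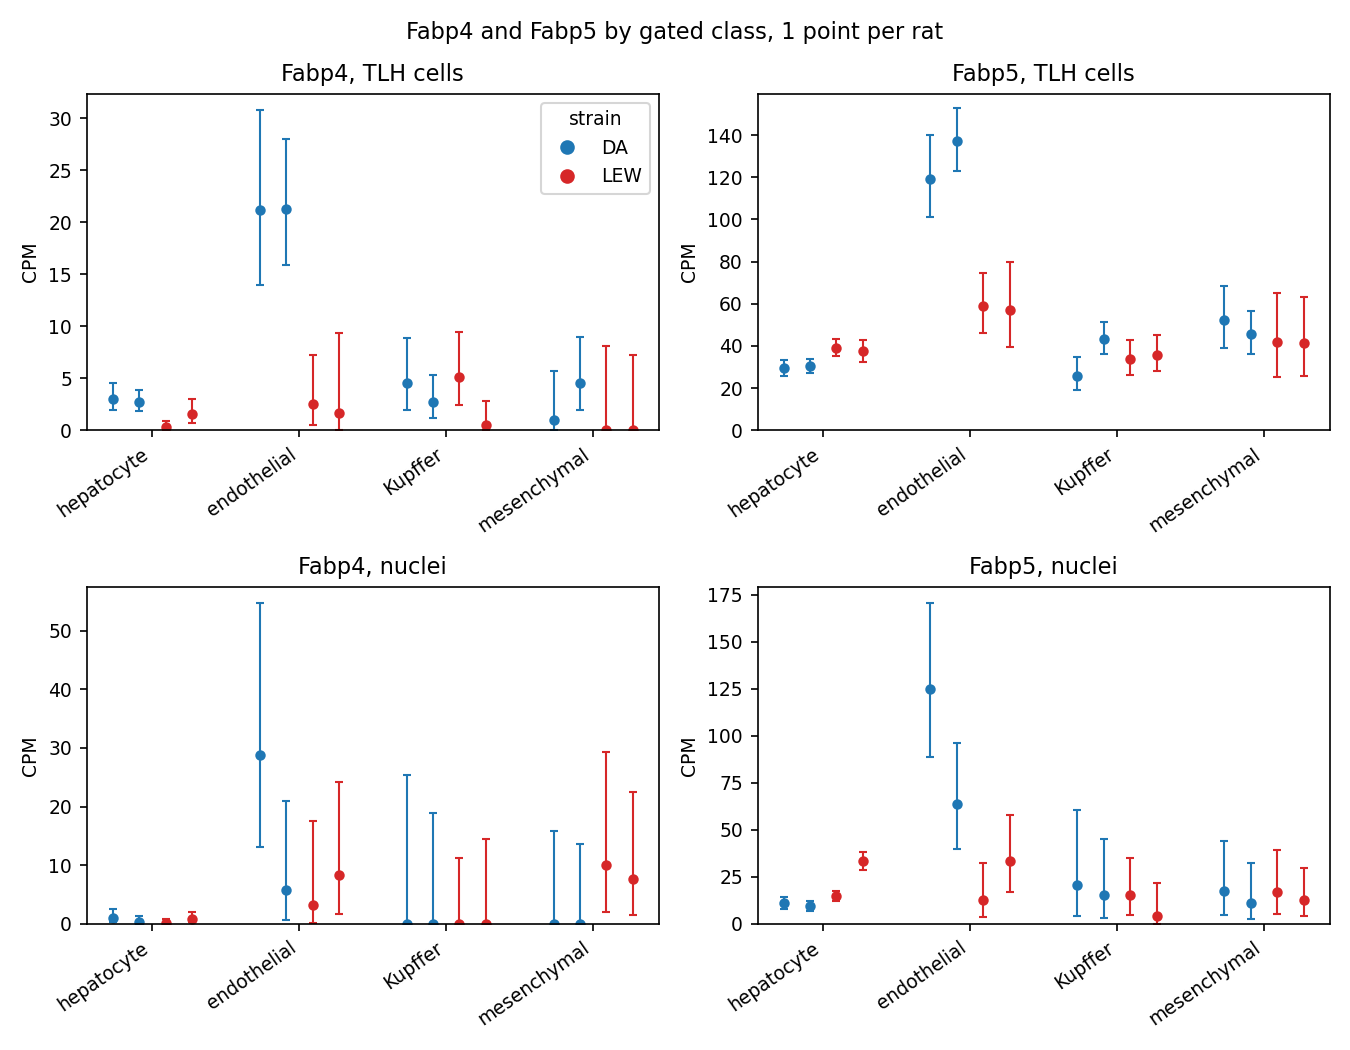
Level (CPM) of Fabp4 and Fabp5 by cell class in TLH cells (top) and nuclei (bottom), 1 point per rat, with bars for the exact Poisson 95% interval of the counts. For Fabp5 the DA endothelial-like values (119.4 and 137.4 CPM in TLH cells, 124.9 and 63.7 CPM in nuclei) lie above the hepatocyte-like values of all rats, and for Fabp4 the DA endothelial-like TLH values (21.2 and 21.3 CPM) lie above those of LEW.

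Within TLH endothelial-like cells the strains were compared directly. Fabp5 was lower in LEW than in DA by 1.22 on the log2 scale (mean 58.1 ± 1.27 CPM against 128 ± 12.7 CPM, SD, n = 2 rats each), which is a 2.34-fold difference with an SE of 0.19 on the log2 scale (edgeR, adjusted p = 0.00293), where 3.64% of 7094 genes were called. Without the first LEW rat the difference was -1.21 and its adjusted p 0.105. In hepatocyte-like cells Fabp5 pointed the other way, with 29.8 ± 0.677 CPM in DA and 38.2 ± 1.14 CPM in LEW, without passing the test (0.40 ± 0.14, adjusted p = 0.162). In hepatocyte-like nuclei Fabp5 was also higher in LEW (1.22 ± 0.38, adjusted p = 0.215), which passed with the replicate block (1.17, adjusted p = 0.0196) and without the filter on low counts (1.25, adjusted p = 0.0194). Kupffer-like cells gave -0.05 (adjusted p = 0.937). Barcodes below the limit differed less, with 35 and 35.6 CPM in DA and 44.0 and 39.1 CPM in LEW. When the hepatocyte-like profile of the same rat, scaled by albumin UMIs, was subtracted, 99.2 and 113 CPM of Fabp5 were left in DA and 36.8 and 31.5 CPM in LEW endothelial-like cells. With the profile of barcodes below the limit, 87.9 and 106 CPM were left in DA and 21.4 and 22.6 CPM in LEW.

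Fabp4 was rare, and among the TLH classes its level was highest in the endothelial-like cells of the DA rats. In endothelial-like cells it measured 21.2 and 21.3 CPM in DA (27 and 51 UMIs) and 2.5 and 1.7 CPM in LEW (3 UMIs and 1 UMI). Hepatocyte-like cells held 3.0 and 2.7 CPM in DA and 0.3 and 1.6 CPM in LEW, close to the barcodes below the UMI limit with 3.24, 3.1, 0.455 and 2.24 CPM. Kupffer-like cells held 4.5 and 2.7 CPM in DA and 5.1 and 0.5 CPM in LEW, where 1 cell held all 10 UMIs of the first rat, so among the named classes the DA endothelial-like values stood clear of these. Cells that passed no gate held 18.7 and 12.8 CPM in DA (12 and 15 UMIs), and 1 cell of the first DA rat held 8 of its 12 UMIs. In the first LEW rat 134 such cells held 4 UMIs, all in 1 cell. The gene fell under the filter on low counts in the comparisons of classes. In the fit without that filter endothelial-like exceeded hepatocyte-like cells by 2.31 on the log2 scale in TLH cells and by 3.63 in nuclei. The endothelial-like UMIs came mostly from the DA rats, so these values are descriptions without a test.

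The log2 difference of Fabp4 between LEW and DA in TLH endothelial-like cells was -3.29. The gene passed the filter there only through the DA rats, where it is high, so this value is a description without a test. In hepatocyte-like cells the DA rats again carried most UMIs and held the level of their barcodes below the limit. The strain difference there was -1.77 and is a description as well. In nuclei Fabp4 counted 9 and 2 UMIs in DA and 1 and 3 UMIs in LEW endothelial-like nuclei and 0 UMIs in the Kupffer-like nuclei of all 4 rats, which allows 9.06 to 20.7 CPM there at 3 counts.

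Fabp4 transcripts were concentrated in few cells of the immune-enriched libraries. The DA endothelial-like class held 216 CPM (182 to 256) and the LEW one 28.7 CPM (20.4 to 39.2), and hepatocyte-like cells held 1 UMI in each library. Of the 138 UMIs of the DA endothelial-like class, found in 25 of its 207 cells, 118 lay in 13 cells with at least 3 UMIs each. In LEW, 22 of 39 UMIs lay in 2 of 323 cells. In the DA TLH libraries only 1 and 2 endothelial-like cells reached 3 UMIs. At 1000 UMIs per cell, 7.73% of DA and 2.48% of LEW immune-enriched endothelial-like cells had a Fabp4 UMI (12.1% and 4.02% before thinning), against 0% of hepatocyte-like cells in both.

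The 13 DA endothelial-like cells with at least 3 Fabp4 UMIs (median 3136 UMIs) were set beside the 182 endothelial-like cells of the same library without any (median 2586 UMIs). The genes given here were chosen after their values had been seen and have no test. Ednrb, an endothelin receptor, stood at 943 against 27.2 CPM, Ltbp4, which binds latent TGF-β, at 496 against 39.9 CPM, Rspo3, a Wnt amplifier of the central vein, at 347 against 36.2 CPM, and Il33, an alarmin, at 546 against 101 CPM. Vwf, the von Willebrand factor of vessels other than sinusoids, stood at 124 against 1.81 CPM, from 5 UMIs against 1. Fabp5 itself stood at 1761 against 431 CPM. Lyve1 stood at 4466 against 4797 CPM, Stab2 at 124 against 216 CPM (5 UMIs in the cells with Fabp4), Bmp2 at 719 against 1457 CPM and Kdr at 1836 against 2504 CPM. Lyve1, Stab2, Bmp2 and Kdr are markers of the endothelial gate, so their presence in these cells is no evidence on the cell type. Hba-a2 of red cells, summed over its 2 rows, stood at 24.8 against 10382 CPM and Apoc3 of hepatocytes at 49.6 against 83.4 CPM, and their part was not tested. The LEW library had 2 such cells and 310 without Fabp4. In them Ednrb was at 1080 against 14.5 CPM (7 UMIs) and Ltbp4 at 771 against 45.9 CPM (5 UMIs), whereas Rspo3, Il33 and Vwf had 0 UMIs and Fabp5 and Lyve1 had 1 UMI each.

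Outside the endothelium, Fabp4 was carried by a handful of cells in each library. The other genes named here were again chosen after their values had been seen. In the LEW Kupffer-like class, at 61.4 CPM (52.1 to 71.8) against 5.4 CPM in DA, 147 of 155 UMIs lay in 6 of 185 cells. Those 6 cells held no Marco, a scavenger receptor of resident macrophages, which stood at 8434 CPM in the 173 Kupffer-like cells without Fabp4. They held more Cd74 (4712 against 883 CPM) and RT1-Da (3145 against 624 CPM), both of MHC class II, and more Mmp12 (282 against 17.5 CPM) and Fabp5 (372 against 32.5 CPM). Clec4f, specific to Kupffer cells, was present at 3089 against 6458 CPM. Both rows named Hba-a2 were higher in these 6 cells too, at 28870 against 5959 and 11814 against 2391 CPM, and its part was not tested. In the DA mesenchymal-like class, at 1438 CPM, 210 of 213 UMIs lay in 2 of 25 cells, in which Igfbp2 stood at 2031 against 190 CPM in the cells without Fabp4 and Col1a1 at 1765 against 245 CPM. Of the DA cells that passed no gate, 2 held 37 of 39 UMIs, and the DA monocyte or dendritic-like class held 12 UMIs (26.7 CPM). The LEW mesenchymal-like class held no Fabp4 UMI in 30 cells, and the adipocyte genes Adipoq, Plin1, Plin4, Cidec and Lep were at 0 in the 2 DA mesenchymal-like cells.

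Fabp2, the enterocyte form, stayed near the limit of detection. TLH hepatocyte-like cells held 21, 29, 27 and 27 UMIs in the 4 rats (2.7, 2.6, 2.7 and 4.7 CPM). The other large classes held 11 UMIs or fewer per rat, between 1.66 and 5.5 CPM except for the mesenchymal-like cells of the first DA rat with 11.3 CPM, and barcodes below the UMI limit 4.14, 2.89, 3.37 and 4.64 CPM. No nuclei class held more than 4 UMIs. In the immune-enriched libraries there were 8 UMIs in DA and 20 UMIs in LEW hepatocyte-like cells (1.59 and 0.608 CPM) and 0 UMIs in the other named classes. The strains did not differ detectably in TLH hepatocyte-like cells (0.49, edgeR, adjusted p = 0.508).

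In the hepatocyte-like class the members that are abundant there were set side by side between strains. Fabp1, chosen for this difference, measured 5941 ± 233 CPM in DA and 10760 ± 1622 CPM in LEW TLH cells and 1456 ± 69.4 and 3307 ± 991 CPM in nuclei (SD, n = 2 rats each). In both platforms each LEW rat lay above each DA rat, the pattern for which Fabp1 was chosen. The share of all genes so separated was not counted. The log2 differences were 0.90 and 1.23. The nuclei value was 0.72 without the first LEW rat and 1.61 without the second. Fabp7, which had not been chosen for its strain difference, measured 151 ± 0.437 CPM in DA and 381 ± 53.1 CPM in LEW TLH cells and rose by 1.38 ± 0.15 on the log2 scale, 2.60-fold (edgeR, adjusted p = 0.00258), where 3.74% of 9817 genes were called. In nuclei it measured 49.8 and 69.1 CPM in DA and 168.1 and 159.0 CPM in LEW. This difference of 1.49 ± 0.35 (2.82-fold) did not pass the test (adjusted p = 0.0829), in a comparison that called 1.04% of 10593 genes. It passed with DESeq2 (adjusted p = 0.00557), with the replicate block (1.49, adjusted p = 0.00497) and without the filter on low counts (1.53, adjusted p = 0.00792). The immune-enriched libraries gave 152 CPM (141 to 163) in DA and 355 CPM (349 to 362) in LEW hepatocyte-like cells. Dbi differed less between strains, by 0.39 ± 0.13 in TLH cells (adjusted p = 0.140) and by 0.42 ± 0.47 in nuclei (adjusted p = 0.823), neither past the threshold.

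The strain difference of Fabp7 appeared in other TLH classes as well, where it cannot be told apart from that of the hepatocyte RNA found in them. It was 1.15 ± 0.18 in endothelial-like cells (edgeR, adjusted p = 0.00250; 0.95 with an adjusted p of 0.0611 without the second LEW rat) and 1.29 ± 0.17 in Kupffer-like cells (adjusted p = 0.00145, with 5.22% of 7918 genes called). Fabp1 differed by 0.73 and 0.72 in the same classes. In Kupffer-like cells Dbi gave 0.19 (adjusted p = 0.523). Per 100 albumin UMIs, TLH hepatocyte-like cells held 22.7 and 19.8 Fabp1 UMIs in DA and 30.1 and 44.5 in LEW. Fabp1 was chosen for its higher level in LEW, so these values restate that difference on another scale and add no support.

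**Figure D3:**
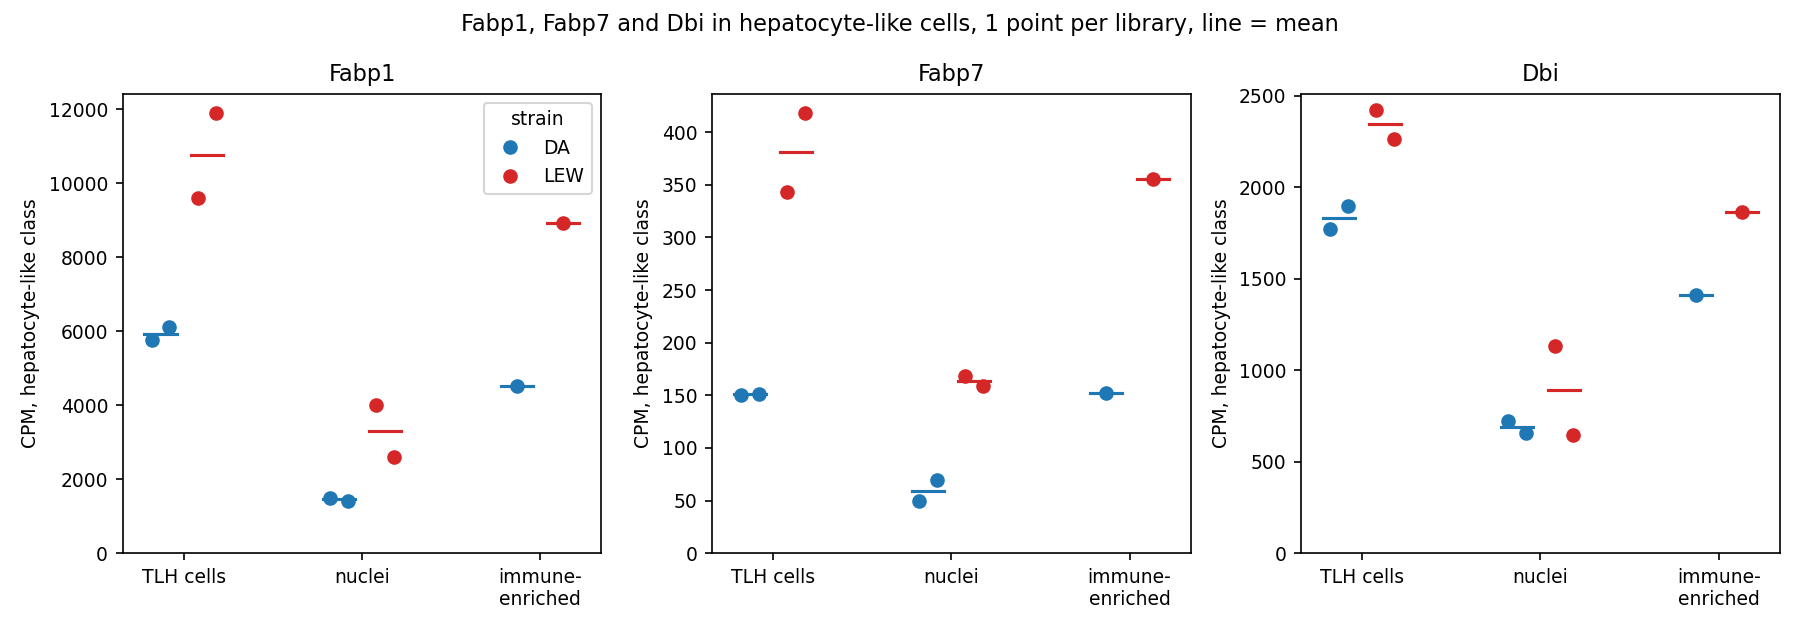
Level (CPM) of Fabp1, Fabp7 and Dbi in the hepatocyte-like class by platform and strain, 1 point per rat, the line marking the mean. For Fabp1 and Fabp7 the LEW points lie above the DA points in TLH cells and nuclei, and for Dbi the strains overlap in nuclei.

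Within the hepatocyte-like class nuclei held lower levels of the members than TLH cells. Fabp1 was lower in nuclei than in TLH cells by 2.68 on the log2 scale (SE 0.26, 6.40-fold, edgeR with strain as a covariate, adjusted p = 1.37e-06). Dbi was lower by 2.21 ± 0.26 (adjusted p = 5.86e-06) and Fabp5 by 1.95 ± 0.22 (adjusted p = 5.35e-06), while Fabp7, given without a test, was lower by 2.11. Fabp2 passed the filter through the TLH cells alone and is not tested, with 1, 1, 4 and 3 UMIs in hepatocyte-like nuclei. All of these are relative to the other genes after scaling by library composition, and they are larger than the differences in the CPM given above. In this comparison 72.7% of the 10404 genes tested were called, so being called sets the members apart little. Chemistry, sequencer and preparation changed together with the platform and cannot be told apart from it.

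Along the lobule Fabp1 and Fabp7 ran in opposite directions in the Visium sections. Hepatocytes near the portal tracts and near the central vein divide the metabolic work of the lobule, and spots were ordered by the difference between a periportal and a pericentral marker score, without any member gene. From the most periportal to the most pericentral of 5 equal bins Fabp1 went from 7171 through 6980, 6690 and 6150 to 5088 CPM in section A and from 6971 through 6831, 6407 and 5905 to 4819 CPM in section B. Over the same bins Fabp7 went from 48.1 through 55.0, 62.4 and 74.4 to 101 CPM in section A and from 42.4 through 47.3, 61.0 and 76.3 to 99.1 CPM in section B. Each step went the same way in both sections.

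On the log2 scale the most pericentral and the most periportal bins differed in Fabp1 by -0.50 in section A and -0.53 in B and in Fabp7 by 1.07 and 1.23. Albumin, which is not part of the score, also fell, by -0.31 and -0.36, with Spearman correlations with the zone score of -0.64 and -0.68. A fall toward the central vein was thus not particular to Fabp1. Dbi was nearly flat, with 0.09 and 0.10. Fabp5 gave -0.06 in A and 0.55 in B, and the value in A turned to 0.049 with 3 bins and to 0.026 with the zone genes that the study names (0.38 and 0.40 in B). Cyp2e1, a pericentral enzyme of drug metabolism and part of the score, went from 1072 to 2181 CPM in A and from 1127 to 2483 CPM in B and shows the span of the zones. Over spots the Spearman correlation with the zone score was -0.54 and -0.55 for Fabp1 (n = 2437 and 2404 spots), 0.18 and 0.21 for Fabp7, 0.08 and 0.07 for Dbi and -0.01 and 0.05 for Fabp5. Spots of a section share a library and neighbours share cells, and the score correlated with spot depth by -0.09 and -0.17, so these values are descriptions. A spot holds several cells, and fewer cells of a type and less RNA per cell cannot be told apart in it. Each of the 2 sections gives 1 value per bin, and no test between zones was made over them.

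**Figure D4:**
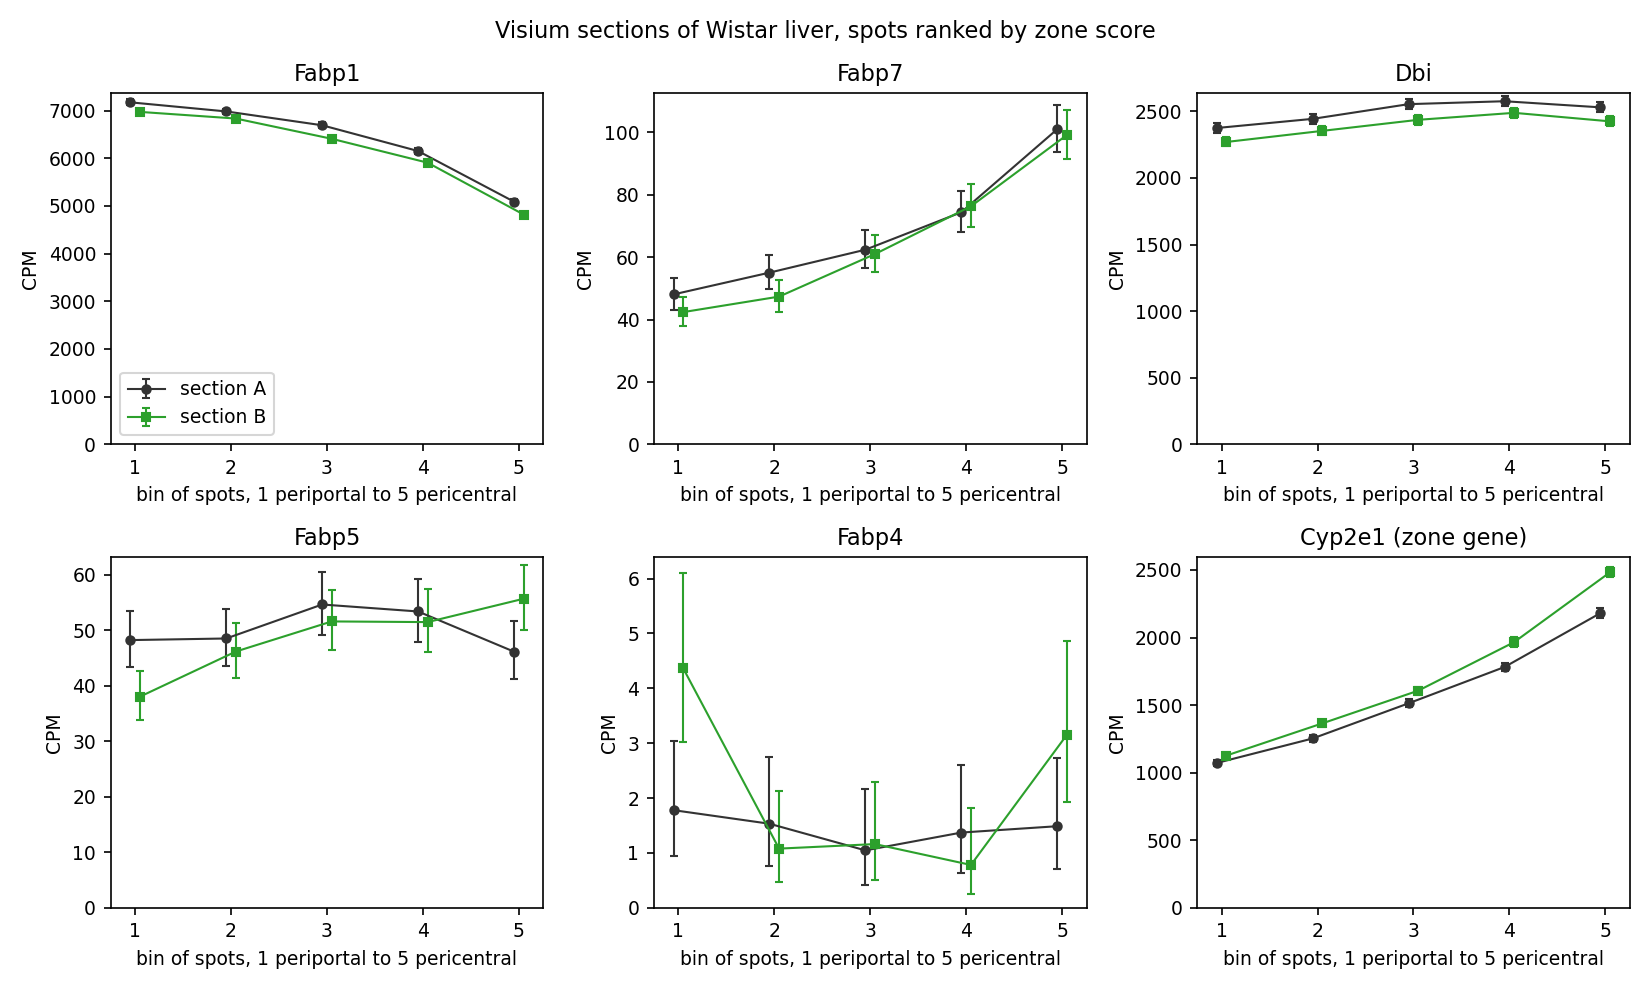
Level (CPM) of 5 of the 6 genes and of Cyp2e1 over 5 bins of spots from periportal (1) to pericentral (5) in Visium sections A and B. Fabp1 falls from 7171 to 5088 CPM in A while Fabp7 goes from 48.1 to 101 CPM, and Fabp4 stays at or below 4.4 CPM in every bin.

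Fabp4 and Fabp5 were also looked for in the tissue. Over the whole sections Fabp5 measured 50.1 and 48.1 CPM, with bins between 46.1 and 54.6 CPM in A and between 38.0 and 55.6 CPM in B. Fabp4 counted 50 UMIs in A (1.45 CPM) and 75 in B (2.15 CPM). Its bins ran 1.8, 1.5, 1.0, 1.4 and 1.5 CPM in A and 4.4, 1.1, 1.2, 0.8 and 3.2 CPM in B, so that in B both ends of the lobule axis held more than the middle. Vwf, the gene of larger vessels, was also higher at both ends, with 12.3, 7.9, 5.7, 4.4 and 11.2 CPM in A and 14.5, 9.0, 7.3, 5.6 and 15.1 CPM in B. Fabp2 counted 32 and 11 UMIs.

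Within the hepatocyte-like class the pericentral rise of Fabp7 was tested with the rat as a block. Among hepatocyte-like nuclei the pericentral tertile held 74.8 and 78.6 CPM in DA and 195 and 209 CPM in LEW, and the periportal tertile 27.5 and 44.9 CPM in DA and 135 and 112 CPM in LEW. The pericentral value was higher in 4 of 4 rats, by 0.91 ± 0.17 on the log2 scale (1.88-fold, edgeR, adjusted p = 0.00545), in a comparison that called 4.81% of 8628 genes. Without the second DA rat the difference was 0.93 with an adjusted p of 0.0601. The tertiles also differed in depth, with a median of 1367, 1676, 1465 and 2217 UMIs per pericentral and 2091, 2151, 1724 and 2119 UMIs per periportal nucleus in the same order of rats. In the immune-enriched hepatocyte-like cells the ratio was 2.90 in DA and 2.60 in LEW, but there the pericentral cells had a median of 3159 and 2406 UMIs and the periportal ones 36882 and 35920. The part of depth in these ratios was not tested.

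The zone difference of Fabp1 was not the same in every platform. In nuclei the pericentral tertile held 1441 and 1112 CPM in DA and 3259 and 2300 CPM in LEW against 1328, 1328, 4072 and 2874 CPM in the periportal tertile. Lower pericentral values were thus found in 3 of 4 rats, and the difference did not pass the test (-0.13 ± 0.18, edgeR, adjusted p = 0.80). The middle tertile, with 1769 and 1770 CPM in DA and 4701 and 2664 CPM in LEW, exceeded both ends in 3 of 4 rats. The immune-enriched cells gave pericentral to periportal ratios of 1.03 in DA and 0.832 in LEW. The study describes a poor distribution of zone markers in TLH cells, so TLH tertiles are a weaker measure of zone than those of nuclei. In TLH cells the pericentral tertile was the higher one in all 4 rats, with ratios of 1.16, 1.03, 1.47 and 1.29. The log2 difference was 0.24 ± 0.08 (edgeR, adjusted p = 0.0273). Dbi gave nearly the same TLH ratios, 1.12, 1.02, 1.49 and 1.30 (0.23 ± 0.07, adjusted p = 0.0264), as did Fabp7 with 1.12, 1.14, 1.46 and 1.45 (0.31 ± 0.08, adjusted p = 0.00171), where 11.2% of 7860 genes were called. The TLH call of Fabp1 was lost without the first DA rat (0.26, adjusted p = 0.188), the first LEW rat (0.17, adjusted p = 0.294) or the second (0.21, adjusted p = 0.368). That of Dbi was lost without the same rats (0.26, 0.15 and 0.20, adjusted p = 0.133, 0.348 and 0.342), and that of Fabp7 without the second LEW rat (0.25, adjusted p = 0.108). In DESeq2 the adjusted p was 0.0759 for Fabp1, 0.128 for Dbi and 0.0522 for Fabp7. Fabp5 did not pass in nuclei (0.09, adjusted p = 0.930) or in TLH cells (0.16, adjusted p = 0.451), and Dbi in nuclei gave -0.11 (adjusted p = 0.813).

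**Figure D5:**
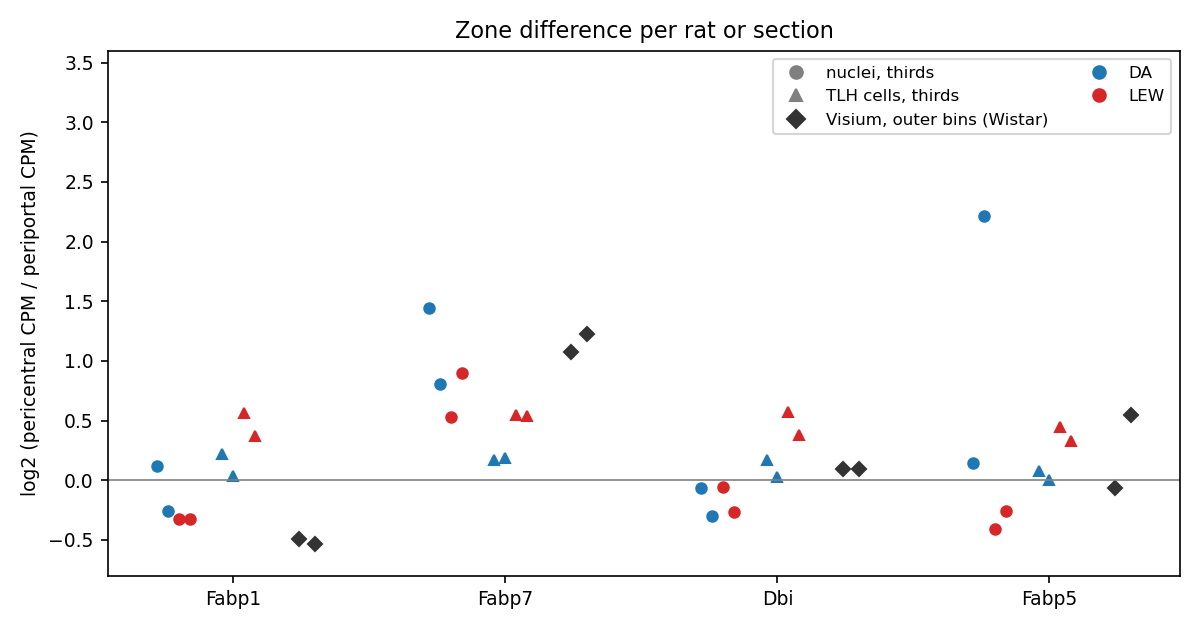
Log2 ratio of the pericentral to the periportal level of Fabp1, Fabp7, Dbi and Fabp5, 1 point per rat (hepatocyte-like nuclei and TLH cells, outer tertiles of the zone score) or per Visium section (outer bins of 5). Fabp7 is above 0 in every rat and section, Fabp1 is below 0 in both sections and above 0 in all 4 TLH rats, and Fabp5 ranges up to 2.21 in the second DA nuclei sample.

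The members were set beside 37 other genes of fatty acid handling, grouped as uptake, activation, acyl-CoA binding, oxidation, synthesis and storage, and their regulators. Between endothelial-like and hepatocyte-like TLH cells 1 of 27 tested was higher, Ppard (0.50), a fatty acid receptor, and 16 were lower, among them Slc27a2 (-1.02) and Acsl1 (-0.75), which activate fatty acids, Scd (-0.89), the desaturase, and Dgat2 (-0.77), which completes triglycerides. The median log2 difference of the list was -0.37 against -0.03 over all genes tested, of which 41.3% were called. In nuclei 1 of 26 was higher (Acbd6, 0.63) and 16 were lower, with a median of -0.60 against -0.01 and 39.1% of all genes called. Fabp5 thus lay on the side of the single higher gene in both platforms. Against hepatocyte-like cells, Kupffer-like TLH cells had 1 of 27 higher, Plin2 (1.04), which coats lipid droplets, and 19 lower, with 46.1% of all genes called, and Kupffer-like nuclei had 0 of 26 higher and 11 lower, with 25.5% called.

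Between strains the list was compared in the same way. In TLH hepatocyte-like cells 0 of 33 were higher in LEW and 2 were lower, Ehhadh (-2.78, edgeR, adjusted p = 0.013) of peroxisomal and Acadm (-0.75, adjusted p = 0.029) of mitochondrial oxidation, with a list median of 0.02, where 3.74% of all genes were called. In nuclei 0 of 33 were called in either direction, with 1.04% of all genes called. TLH endothelial-like cells had 0 of 26 higher and 3 lower, Ehhadh (-2.49), Scd (-1.22) and Acadm (-0.81), with 3.64% of all genes called. TLH Kupffer-like cells had 1 of 27 higher, Acsl5 (0.62), and 2 lower, Ehhadh (-3.13) and Acadm (-0.90), with 5.22% called. In endothelial-like and Kupffer-like cells the Ehhadh and Acadm differences cannot be told apart from those of the hepatocyte RNA found in them. Along the zones of hepatocyte-like nuclei 3 of 30 were higher in the pericentral tertile, Scd (1.43), Slc27a5 (1.26) and Acsl5 (0.95), and 1 was lower, Fasn (-0.78), the fatty acid synthase, with 4.81% of all genes called. In TLH hepatocyte-like cells 0 of 28 were higher and 4 were lower in the pericentral tertile, with 11.2% of all genes called. The 4 were Slc27a4 (-0.999), Slc27a2 (-0.37), Lipc (-0.32) and Cpt1a (-0.32). TLH tertiles are a weaker measure of zone than those of nuclei, as stated above.

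Of 10 further genes of the lipid-binding family, 4 could be tested between the TLH classes. Of these only Fabp3, the heart form, was called between endothelial-like and hepatocyte-like cells (1.19, edgeR, adjusted p = 0.0196, with 41.3% of all genes called) and between Kupffer-like and hepatocyte-like cells (2.31, adjusted p = 1.96e-07, with 46.1% called). In mesenchymal-like against hepatocyte-like cells 2 of 4 were higher in TLH and 1 of 1 in nuclei (23.9% and 27.4% called). In TLH endothelial-like against Kupffer-like cells 1 of 4 was lower (23.3%). Higher in LEW were 1 of 4 in TLH and 1 of 3 in nuclei hepatocyte-like cells (3.74% and 1.04%). TLH endothelial-like cells had 1 of 1 and Kupffer-like cells 1 of 2 higher in LEW (3.64% and 5.22%). Between platforms 4 of 4 were lower in nuclei (72.7%).

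For each member the genes with the most similar levels over the 16 TLH profiles of rat and class were sought among 9334 genes, on the log2(CPM + 1) scale. Fabp1 was nearest to Fabp7, with a Pearson correlation of 0.98, followed by Serpina7 and Rgn. Dbi was nearest to Scp2 (0.95), the sterol carrier protein, and then to Gsta5. Fabp5 was nearest to Cemip2 (0.91), a hyaluronidase of the cell surface, and Fabp4 to Fam107b (0.92). The 16 profiles share 4 libraries, and classes of 1 library share its free RNA, so these likenesses are descriptions.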

How the data were processed

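The authors deposited UMI counts per gene and barcode, made with Cell Ranger 3.1.0 (cells, nuclei) and Space Ranger 1.1.0 (Visium) on a Rattus norvegicus reference of Ensembl release 98. The TLH and immune-enriched count matrices hold numbered rows only, so genes in them were identified by position in the nuclei libraries' gene list, of equal length. Reads shared with near-identical copies of a gene were not checked, and the submitters' handling of them bears on Fabp5 and Dbi.

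Cells were kept above 1500 (first DA TLH), 2000 (other TLH) or 1000 UMIs (nuclei, immune-enriched), the study's text giving 1500 for the LEW TLH rats, and below 30%, 20%, 40% (both LEW), 10% (nuclei) or 50% (immune-enriched) mitochondrial UMIs. Doublets were not called. A class needed at least 3 UMIs from at least 2 of its markers, 2 times the next class and 0.1% of the cell's UMIs. Cells passing no gate with at least 1% hepatocyte marker UMIs were hepatocyte-like. This rule was set with the counts in view, and MHC class II genes were left out of it. On average the other large TLH classes exceeded the 1% limit too. In TLH libraries the limit therefore does not separate hepatocytes from barcodes that merely lack other markers. The markers Ahsg, Pecam1, Timd4, Col1a2 and Pkhd1 and the gene Cd36 were not analysed here. Periportal markers were Hal, Sds, Ass1, Arg1, Gls2, Cyp2f4, Hsd17b13, Cdh1, Srd5a1, Orm1, Hmgcs1 and Tf. Pericentral markers were Cyp2e1, Glul, Oat, Sult1e1, Cyp1a2, Slc1a2, Rhbg, Lgr5 and Axin2. The zone score was the mean standardised log level of the pericentral minus that of the periportal markers within a library. TLH and immune-enriched files held no barcode names, and pairs of nuclei libraries shared 1 to 6 barcodes.

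UMIs were summed per rat and class and tested with edgeR 4.0.16 (R 4.3.3, limma 3.58.1; TMM scaling, filterByExpr, quasi-likelihood F test, Benjamini-Hochberg adjustment over all genes tested, threshold 0.05). Class and zone fits had the rat as a block, strain fits no covariate and the platform fit the strain. DESeq2 1.42.0, another scaling, no filter, a stricter gate, another UMI limit, block choices, subtraction of hepatocyte RNA and leaving out each rat were alternatives. The interaction of strain and class was added after seeing the data. Fold changes are on edgeR's scale with its prior count. Each SE was derived from the test, as the absolute log2 difference divided by the square root of the F statistic. Rats of a group are separate animals per the labels. The nuclei and TLH file names carry the same rat numbers, while the study's text speaks of additional rats, so whether animals were shared is not known. The members and lists were chosen with earlier results of these data known. Genes named outside the members follow the fixed lists, the nearest genes by correlation, or were chosen after their values were seen, as stated there.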

Additional observations from a re-analysis of the deposited data

Results flagged for a closer look

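The Fabp5 difference between endothelial-like and hepatocyte-like cells differed between the strains by an interaction term, in TLH cells by -1.60 on the log2 scale (LEW minus DA, SE 0.20, edgeR, adjusted p = 1.99e-09). The same term in nuclei was -3.21 (SE 0.47, adjusted p = 3.06e-08). Both DA rats of each platform had the larger class difference. Over all alternatives that gave a value, the term stayed past the threshold. The fit was added after the values had been seen and the alternatives reuse the same rats, so they are no independent support.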

How the results depend on the processing

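Group sizes of 2 rats were a limit, and age, where the file names hold, went with strain. Calls lost without 1 rat are named in the text: Fabp5 and Fabp7 between strains in TLH endothelial-like cells, Fabp5 and Dbi between nuclei classes, Fabp7 in nuclei zones and Fabp1, Fabp7 and Dbi in TLH zones. Of the main values and counts of the comparisons (the Fabp4 values, which have no test, among them), 227 stayed the same under an alternative, 50 moved and 6 lost the call. Of the values for single genes, 555 stayed the same, 67 moved, 20 lost and 11 gained a call and 15 changed sign. For a test, the same means that direction and call were kept, or direction alone where the alternative gave no adjusted p. Alternatives that gave no value for a gene were not counted. For a count of genes it means within a set factor, and for an untested value within its spread or counting error.

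Without a filter on low counts the numbers of genes called were 3600 for nuclei endothelial-like against hepatocyte-like, 2651 for nuclei Kupffer-like, 3250 for TLH and 2787 for nuclei mesenchymal-like, each against hepatocyte-like, 1278 for nuclei endothelial-like against Kupffer-like, 1069, 496, 534 and 720 between strains in TLH hepatocyte-like, nuclei hepatocyte-like, TLH endothelial-like and TLH Kupffer-like, and 668 for nuclei zones. Fabp4, fitted only then and described without a test, gave 2.31 and 3.63 for endothelial-like against hepatocyte-like in TLH cells and nuclei. Against Kupffer-like TLH cells it gave 1.86. Against Kupffer-like nuclei, which held no UMI, no value is given. With DESeq2 the counts were 235, 112 and 173 between strains in nuclei hepatocyte-like, TLH endothelial-like and TLH Kupffer-like and 262 for TLH zones. With 3 Visium bins Fabp1 gave -0.39 and -0.42 and Fabp7 0.85 and 1.03, and with a stricter gate Fabp1 in LEW immune-enriched cells was 2081 CPM in endothelial-like and 1003 CPM in mesenchymal-like cells. The cause of these shifts was not tested.

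With no replicate block the counts were 2038 and 1419 (endothelial-like, TLH and nuclei), 2235 and 849 (Kupffer-like) and 985 and 891 (mesenchymal-like) against hepatocyte-like, 1285 for TLH endothelial-like against Kupffer-like, 39 and 2 for zones in nuclei and TLH, and Fabp7 in nuclei zones was 0.81 (edgeR, adjusted p = 0.998). The Dbi calls were then lost in endothelial-like and Kupffer-like TLH cells (-0.19 and -0.30, adjusted p = 0.322 and 0.0936) and nuclei (-0.64 and -0.58, adjusted p = 0.0610 and 0.128), and the TLH zone calls of Fabp1, Fabp7 and Dbi too (0.27, 0.37 and 0.25, adjusted p = 0.920, 0.938 and 0.765), with values close to the blocked ones. Rats of different strains shared only a number (correlation of deviations -0.176 in TLH and 0.077 in nuclei hepatocyte-like); the replicate block gave 126 genes in TLH and 517 in nuclei hepatocyte-like strain fits, and crossed numbers 667 and 483 in TLH hepatocyte-like and endothelial-like.

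Leaving out each rat in turn, genes called ranged from 2804 to 3251 and 1621 to 2366 (endothelial-like), 3191 to 3662 and 855 to 1720 (Kupffer-like) and 1300 to 1867 and 1071 to 1859 (mesenchymal-like) against hepatocyte-like in TLH and nuclei, 1609 to 1826 and 612 to 881 for endothelial-like against Kupffer-like, 84 to 247, 57 to 262, 39 to 548 and 207 to 470 between strains in TLH hepatocyte-like, nuclei hepatocyte-like, TLH endothelial-like and TLH Kupffer-like, 7127 to 7905 between platforms, and 189 to 501 and 325 to 1307 for nuclei and TLH zones. Fabp5 ranged from 0.95 to 1.58 and 0.69 to 1.86 for endothelial-like against hepatocyte-like, from -1.34 to -1.13 between strains in TLH endothelial-like and from -1.64 to -1.55 and -3.58 to -2.79 for the interaction. Fabp4 between strains there ranged from -3.63 to -3.17 and Fabp7 in nuclei zones from 0.73 to 1.11.

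Some uncalled values changed sign. Dbi in nuclei mesenchymal-like against hepatocyte-like gave -0.18 without the filter, -0.10 with the stricter gate, -0.041 with no replicate block and -0.17 to 0.24 leaving out each rat. Dbi in nuclei endothelial-like against Kupffer-like gave 0.031 with the stricter gate and -0.19 to 0.18 leaving out each rat, and between strains in nuclei hepatocyte-like -0.20 to 0.86. Fabp5 between strains in TLH Kupffer-like gave 0.044 with 1500 UMIs and -0.32 to 0.40 leaving out each rat, and in nuclei zones -0.23 to 0.37. The Dbi interaction ranged from -0.20 to 0.012 in TLH and from -0.64 to 0.027 in nuclei. In Visium section A the Fabp5 zone value also changed sign, to 0.049 and 0.026.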
